A study of Saccharomyces cerevisiae with 9 samples.

Results

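Loss of UBP8 was examined in yeast cells that had no ubiquitin acceptor site on histone H2B, by setting a strain lacking both the site and UBP8 beside a strain lacking the site alone. The comparison took in every gene with a usable probe. It rested on 4 of the 9 arrays of the series, and 6233 of the 6256 genes on the arrays could be tested. The K123R strain (CY1272) had arginine in place of lysine K123 in HTB1, its sole H2B gene, since HTB2 was deleted, so HTB2 loss is common to both sides. The double mutant (CY1383) carried the same HTB1 allele and the same HTB2 deletion together with a deletion of UBP8. Each strain had been hybridised against the wild-type strain BY4742 on 2 arrays with the dyes reversed, and no array paired the mutants with each other. The difference was therefore taken through wild type: the log2 ratio of the double mutant over wild type minus that of K123R over wild type, between arrays of the same number, which had the same dye orientation. Each gene thus has 2 differences, and their mean is called the difference below; it is positive where the double mutant had more RNA. The 2 arrays of the ubp8 deletion strain (BY10809) over wild type gave the effect of UBP8 loss in cells that keep the lysine. By its label that strain also keeps HTB2, so each comparison with and without the lysine is also one with and without HTB2. HIS3 RNA differed as well, high in both strains with the K123R allele and not in the ubp8 strain. The parts of the lysine, HTB2 and marker genes in such comparisons cannot be told apart. The labels name a single strain for each genotype and list no marker genes or growth conditions.

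Ubiquitin is placed on this lysine of H2B by Rad6 with Bre1 during transcription, and the Paf1 complex is needed for it. Ubp8 takes the ubiquitin off again as the catalytic subunit of the deubiquitylation module of SAGA, a coactivator complex, where it works with Sgf11, Sus1 and Sgf73. H2B ubiquitylation is also required for methylation of histone H3 at the sites of Set1 and Dot1, which bear on silencing near telomeres.

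The arrays had 10807 spots each. On the 6 arrays against wild type median signal over local background was 37.8 to 55 for the green dye and 43.1 to 64.7 for the red. The number of arrays limits the precision. The design text calls the arrays biological replicates. It does not say whether arrays of the same number shared a wild-type RNA sample. Array 1 of both strains lay on the same slide, while array 2 of each lay on a different slide. HTB2 served as a check of the strains, and its log2 ratio over wild type was -3.68 and -3.87 in K123R and -3.16 and -3.64 in the double mutant. Both strains were far below wild type, and the HTB2 difference of 0.38 ± 0.08 (SE, n = 2) did not pass (limma, adjusted p = 0.262). Here and below, n counts the differences of a gene. The SE comes from the limma fit to all 6 arrays against wild type, which also draws on the other genes. It is therefore not the spread of the 2 differences. The title of K123R array 1 names HTB1 as deleted where its source field names HTB2; HTB2 was taken, and its RNA was far below wild type on that array. A further reading went against the labels. LEU2 signal in the K123R channel was 3163 and 3101 units on the arrays against wild type, yet 124 to 232 units in the channel of the same strain name on the 3 arrays against an htb2 deletion strain. RNA labelled K123R was therefore not the same at this gene in both sets of arrays.

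Few genes differed between the double mutant and K123R, and with a single strain per genotype the counts are of differences between strains. With limma and a Benjamini-Hochberg threshold of 0.05, 14 of 6233 genes passed (0.225%), 9 higher (0.144%) and 5 lower (0.0802%) in the double mutant. The difference lay within 0.2 of 0 on the log2 scale for 6130 genes (98.3%). Its SD over genes was 0.09, against 0.28 for K123R over wild type and 0.27 for the double mutant over wild type. UBP8 and LEU2 were the genes that differed by 2-fold or more. Another 4 passing genes, NFS1, YOR203W, YOR199W and YIR043C, differed by at least 1.5-fold. The remaining 4 genes at or beyond 1.5-fold, the ASP3 copies, did not pass. At an unadjusted p under 0.05 there were 358 genes (5.74%). Over the 6154 genes with both values, the 2 differences correlated at r = 0.40, and at 0.12 once the 14 passing genes were set aside; genes are not independent replicates. The wild-type channels of the same 4 arrays, compared with the same block, gave 0 passing genes in limma and 304 at an unadjusted p under 0.05 (4.88%). These are values of a single colour scaled between arrays, not ratios within a spot. Their differences had SDs over genes of 0.13 on array 1 and 0.18 on array 2. For the double mutant minus K123R the SDs were 0.12 and 0.10, so the 0 is not a matched background for the 14.

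**Figure D1:**
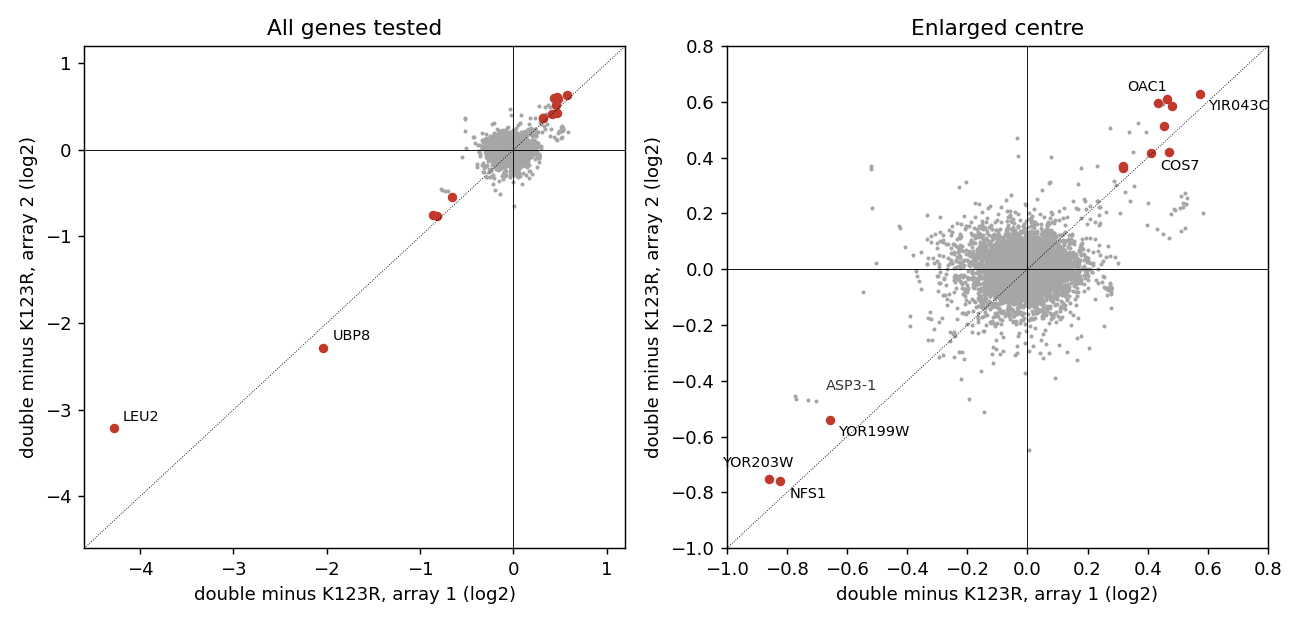
Difference between the double mutant and K123R on array 1 (horizontal) and array 2 (vertical), in log2 units, with 1 point per gene and the 14 genes that passed in red; the right panel enlarges the centre. LEU2 and UBP8 lie far below 0 on both axes, the other passing genes lie along the diagonal, and the 4 ASP3 copies form a separate grey group below 0.

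UBP8 itself was the first check. Its log2 ratio over wild type was -0.28 and -0.12 in K123R, and -2.32 and -2.40 in the double mutant. The strains did not overlap, and the ubp8 deletion strain gave -2.54 and -2.08. UBP8 RNA fell by 2.16 on the log2 scale, 4.47-fold, with an SE of 0.12 (n = 2; limma, adjusted p = 0.00307). A signal of 373 to 401 units remained in the double mutant against 1964 to 2075 in K123R, and all were above background. The gene next to UBP8, FSH2, had a difference of -0.18 ± 0.05 and did not pass (adjusted p = 0.505). The 11 other neighbours within 6 places lay between -0.10 and 0.10.

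Genes for the partners of Ubp8 had small differences that did not pass. SGF11, whose product anchors Ubp8 to SAGA, had a difference of 0.10 with a 95% interval of 0.01 to 0.18 (limma, adjusted p = 0.82). SGF73, the link between the module and the rest of SAGA, had -0.00 with an interval of -0.11 to 0.10 (adjusted p = 0.995). SUS1, the fourth subunit, was not tested. Of 17 other SAGA subunits none passed and none had an unadjusted p under 0.05, with differences from -0.11 to 0.09. Of 12 tested genes for H2B ubiquitylation and the Paf1 complex none passed in limma either, none had an unadjusted p under 0.05, and their range was -0.07 to 0.07. The 10 histone genes had 0 passing and 1 at an unadjusted p under 0.05, HTB2. Their median difference was -0.04, against -0.00 over all genes tested. Over all genes 0.225% passed and 5.74% had an unadjusted p under 0.05, so 0 passing says little about lists this short.

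The largest difference was at LEU2, which encodes isopropylmalate dehydrogenase of leucine synthesis and is a common selectable marker, deleted in BY4742. Its log2 ratio over wild type was 4.12 and 3.27 in K123R. In the double mutant it was -0.16 and 0.06, and in the ubp8 strain 0.02 and -0.05. K123R stood far above both strains that lack UBP8, which lay near wild type. The double mutant's LEU2 signal of 112 and 148 units lay near that of wild type on the same arrays, 174 and 118 units. The size of a fold against so low a signal is uncertain and may be too small. The LEU2 difference was -4.28 on array 1 and -3.21 on array 2. By their mean LEU2 RNA was 13.4-fold lower in the double mutant, a difference of -3.75 ± 0.23 (SE, n = 2; limma, adjusted p = 0.00421). The wild-type channel of LEU2 also differed between the arrays, by -0.49 and -1.48 on the log2 scale, and with the mutant channel alone the difference was -4.73. NFS1, the adjacent gene, encodes the mitochondrial cysteine desulfurase of iron-sulfur cluster assembly. Its log2 ratio was 0.98 and 1.14 in K123R and 0.15 and 0.38 in the double mutant, without overlap. NFS1 RNA fell by 0.79 on the log2 scale (SE 0.04, adjusted p = 0.00307). On the 3 arrays with the htb2 deletion strain as reference, NFS1 was higher in K123R by 0.69, 0.50 and 0.71, whereas LEU2 gave -0.54, 0.14 and -0.56.

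A second group of changed genes surrounded HIS3, another marker gene, which encodes an enzyme of histidine synthesis. HIS3 was high in both mutants, with log2 ratios of 3.87 and 2.47 in K123R and 3.32 and 2.39 in the double mutant. The strains overlapped, and the difference of -0.31 ± 0.27 did not pass (adjusted p = 0.878). YOR203W, an open reading frame beside HIS3, gave 1.81 and 1.53 in K123R, 0.95 and 0.78 in the double mutant and -0.33 and -0.62 in the ubp8 strain. Both mutants with the K123R allele stood above wild type, and the ubp8 strain stood below it. YOR203W RNA fell by 0.81 on the log2 scale (SE 0.04, limma adjusted p = 0.00307). YOR199W, a further open reading frame on the other side of HIS3, gave 0.84 and 0.49 in K123R, 0.18 and -0.05 in the double mutant and -0.01 and -0.23 in the ubp8 strain, and fell by 0.60 (SE 0.05, adjusted p = 0.0108). Neither has an entry in the RefSeq annotation used for names, and both were singled out after their values were seen. YOR199W signal was low, 187 and 203 units in K123R and 99 and 130 in the double mutant. Wild type on these arrays had 107 to 134 units. The size of the YOR199W difference is therefore uncertain, and it ran from -1.33 to -0.50 over the alternative settings. Between YOR199W and HIS3 lie MRM1 and YOR200W, whose differences of -0.28 and -0.26 did not pass (adjusted p = 0.188 and 0.183). Thus 4 of the 5 genes that fell were LEU2, a neighbour of LEU2 or a near neighbour of HIS3, and the other was UBP8. A change in marker genes between the strains and an effect of UBP8 loss cannot be told apart at these loci. URA3 and LYS2, further marker genes, had differences of -0.04 and -0.05 and did not pass (adjusted p = 0.894 and 0.867). Their signals were low, 199 to 337 units for URA3 and 112 to 186 for LYS2 in the 2 mutants. Wild type on these arrays had 172 to 308 and 129 to 177 units, so a change in these genes might not show.

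**Figure D2:**
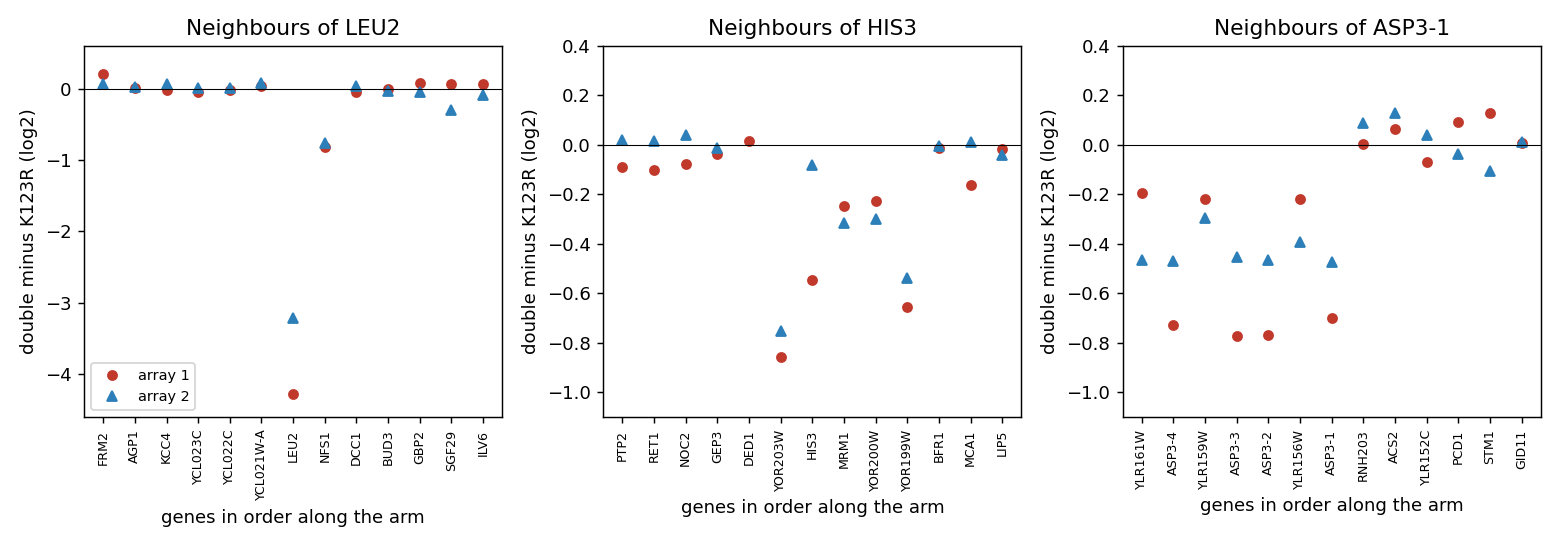
Difference between the double mutant and K123R in log2 units on array 1 (red circles) and array 2 (blue triangles) for genes in their order around LEU2, HIS3 and ASP3-1. NFS1 is the sole neighbour of LEU2 that moved with it, YOR203W and YOR199W lie below 0 beside HIS3, and the 7 genes of the ASP3 stretch lie below 0 on both arrays; the left panel has a wider vertical scale.

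Other genes of leucine and branched-chain amino acid synthesis were mostly higher in the double mutant, although OAC1 was the single one that rose by the test. OAC1, a mitochondrial carrier of oxaloacetate and isopropylmalate, gave -0.97 and -0.72 in K123R and -0.54 and -0.12 in the double mutant. It was below wild type in K123R and less so in the double mutant, without overlap, and near wild type in the ubp8 strain (-0.06 and 0.26). OAC1 rose by 0.51 ± 0.05 (SE, n = 2; limma, adjusted p = 0.0189). LEU1, the isopropylmalate isomerase, gave -0.79 and -0.82 in K123R and -0.34 and -0.23 in the double mutant. Its difference of 0.52 ± 0.09 was as large but did not pass (adjusted p = 0.188). BAT1, the mitochondrial branched-chain aminotransferase, had a difference of 0.39 ± 0.07 (adjusted p = 0.198), and ILV3 and ILV5, enzymes upstream of it, had 0.12 and 0.14. Of 13 genes tested on the list, 1 rose and 1 fell, 5 were higher and 1 lower at an unadjusted p under 0.05 (2.52% and 3.22% of all genes), and the median difference was 0.09. These differences stood beside the LEU2 difference in the same RNA, and the part of LEU2 in them was not tested.

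Of the 9 genes that rose, 8 lay among the outermost 5 genes of a chromosome arm, and OAC1 was the exception. Gene order was taken from systematic names. Of 159 tested genes in these outer places on 32 arms, 8 rose and none fell, and 42 were higher and 4 lower at an unadjusted p under 0.05. Over all genes 0.144% rose and 0.0802% fell, and 2.52% were higher and 3.22% lower at that level. Of 160 genes in the next 5 places none passed, and 5 were higher and 10 lower at that level. The outermost gene of an arm had a median difference of 0.29 over 31 genes, 0.35 on array 1 and 0.14 on array 2. Of the 31, 6 were copies of YRF1, which are nearly identical, and without them the median was 0.10 over 25 genes. An arbitrary limit of 0.25 put 17 outermost genes above it, at 0.29 to 0.41, with all 6 YRF1 copies and 11 others. The other 14 lay between -0.07 and 0.22. Which of the 11 share sequence with YRF1 was not examined, so the genes at chromosome ends are not all separate measurements. Of these 31 genes, 22 were above 0 on both arrays and 3 below. For places 2 to 5 the median was 0.02, and beyond place 40 it was -0.00. The plot by distance from the chromosome end shows the median falling to 0 within the first few genes. With the scanner's processed signals in place of the raw ones, 5 of the 8 genes still passed. None of the 8 passed with the mutant channel alone, with slide as a block in place of array number or without any block.

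**Figure D3:**
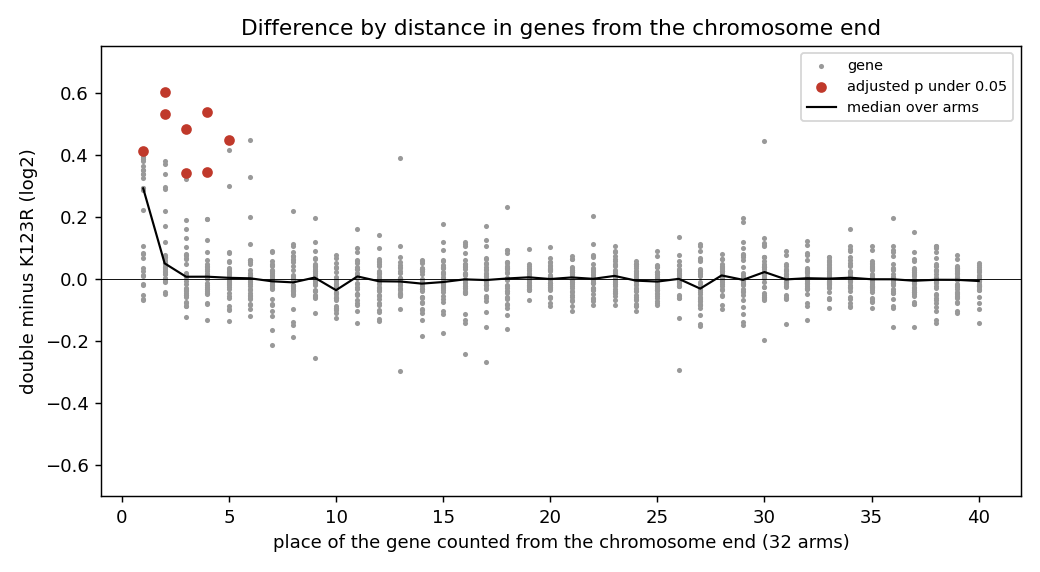
Difference between the double mutant and K123R in log2 units (vertical) by place of the gene counted from the chromosome end (horizontal, 1 is outermost), with 1 point per gene, the passing genes in red and the median over arms as a line. The median is 0.29 at the outermost place and near 0 from the third place on, and the 8 red points all lie in the first 5 places.

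The 8 genes at chromosome ends fell into 2 patterns. Whether their probes share sequence with each other, or with the COS and YRF1 genes, was not examined. The 8 may therefore not be separate measurements. COS7, COS8 and YIR043C were also above wild type in the ubp8 strain. COS7, of a family of membrane proteins that sort cargo for degradation in the vacuole, gave -0.12 and -0.14 in K123R, 0.29 and 0.27 in the double mutant and 0.46 and 0.42 in the ubp8 strain. It was higher by 0.41 ± 0.03 in the double mutant than in K123R (SE, n = 2; limma, adjusted p = 0.0143). Its effect with the lysine, 0.44 ± 0.02, differed from this by -0.03 ± 0.04 (adjusted p = 0.675). COS8, of the same family, gave 0.05 and 0.24 in K123R and 0.50 and 0.75 in the double mutant, and rose by 0.48 ± 0.04 (adjusted p = 0.0143). YIR043C, listed as a pseudogene in RefSeq, gave 0.31 and 0.22 in K123R, 0.88 and 0.85 in the double mutant and 0.93 and 0.98 in the ubp8 strain. It had the largest rise among the genes tested, 0.60 ± 0.04 (adjusted p = 0.0108), and its 0.96 ± 0.03 with the lysine was larger by 0.36 (adjusted p = 0.012). For these genes both strains without UBP8 were above K123R on every array. COS family members share sequence, so their probes may not tell them apart. Of 11 members tested, COS7 and COS8 rose, against 0.144% of all genes, and the median difference was 0.05. COS12, at 3.23 and 2.87 in K123R and 3.05 and 2.91 in the double mutant, had a difference of -0.07 ± 0.06 (adjusted p = 0.878).

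The other 5 genes at chromosome ends, all open reading frames of unknown function, were near wild type in the ubp8 strain. YEL075C gave -0.45 and -0.43 in K123R and 0.02 and 0.18 in the double mutant, with -0.02 and -0.03 in the ubp8 strain. YER189W gave nearly the same values, -0.46 and -0.43 in K123R and 0.02 and 0.16 in the double mutant. Whether the probes of YEL075C and YER189W tell the genes apart was not examined, and they may be 1 measurement. In both genes K123R was the strain that stood away from wild type. YEL075C rose by 0.54 ± 0.05 and YER189W by 0.53 ± 0.05 (limma, adjusted p = 0.0208 and 0.0179). Against the htb2 deletion strain, K123R was at -0.01, -0.05 and 0.04 for YEL075C. YLR463C rose by 0.45 ± 0.04, YBL109W by 0.34 ± 0.04 and YPR202W by 0.34 ± 0.04 (adjusted p = 0.0141, 0.0358 and 0.0363). For these 3 genes the double mutant, not K123R, stood above wild type: YLR463C gave 0.35 and 0.19, YBL109W 0.31 and 0.41 and YPR202W 0.22 and 0.26, while K123R lay between -0.23 and 0.04. YLR463C and YBL109W have no RefSeq entry and were singled out after their values were seen. Of the YRF1 genes, which encode helicases of the repeated Y′ elements next to telomeres, 7 were tested. Their differences ranged from 0.32 to 0.40, none passed (adjusted p = 0.301 for YRF1-4 and 0.641 for YRF1-6) and all 7 had an unadjusted p under 0.05. Their median was 0.51 on array 1 and 0.20 on array 2. YRF1 copies are nearly identical, so these are not separate measurements.

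**Figure D4:**
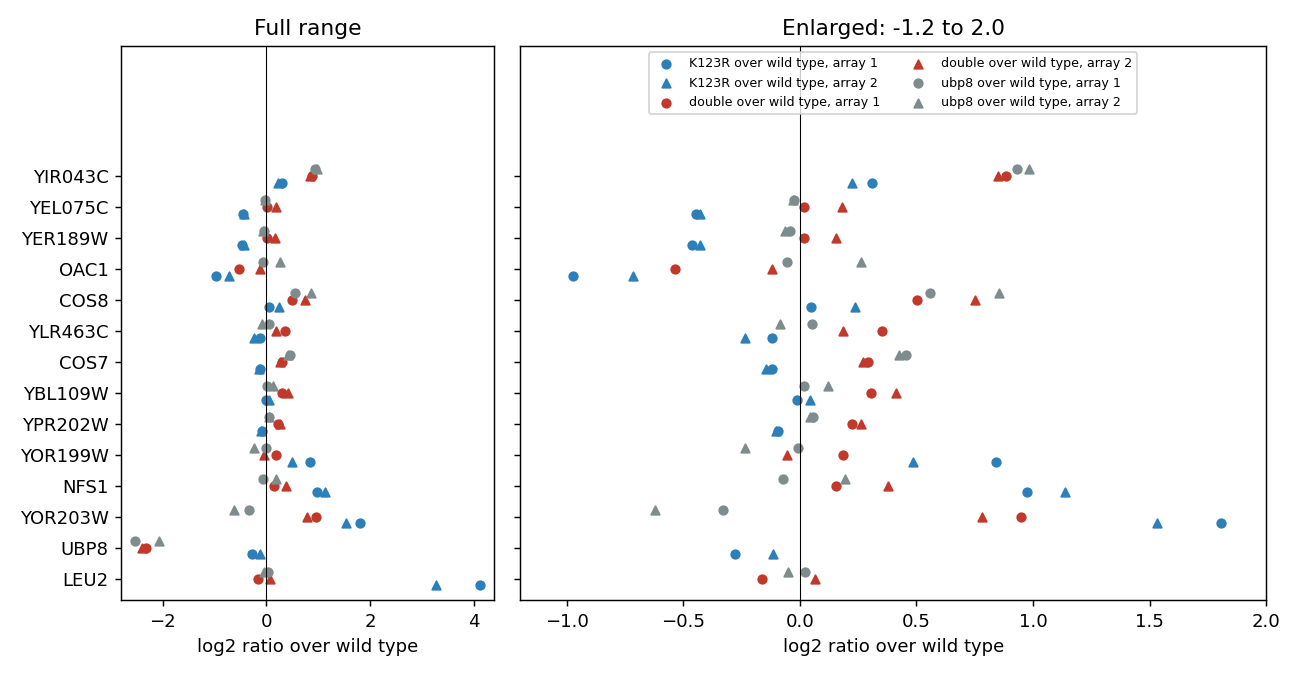
Log2 ratio over wild type of the 14 passing genes on each array, for K123R (blue), the double mutant (red) and the ubp8 strain (grey), with circles for array 1 and triangles for array 2; the right panel enlarges the range -1.2 to 2.0. No gene has overlapping K123R and double mutant points, and the ubp8 points lie beside the double mutant for UBP8, LEU2, COS8 and YIR043C.

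The ASP3 genes are tandem copies that encode a secreted asparaginase used when nitrogen is short. ASP3-1 gave 0.06 and -0.08 in K123R, -0.64 and -0.55 in the double mutant and 0.19 and -0.03 in the ubp8 strain. The double mutant was the one strain below wild type. ASP3-1 had a difference of -0.59 ± 0.07 that narrowly missed the threshold (limma, adjusted p = 0.0595). ASP3-2, ASP3-3 and ASP3-4 had differences of -0.62, -0.61 and -0.60 (adjusted p = 0.092, 0.102 and 0.0599). The copies share nearly all of their sequence and count as a single measurement. YLR156W, YLR159W and YLR161W, which lie between and beside them, had differences of -0.31, -0.26 and -0.33 and did not pass (adjusted p = 0.359, 0.31 and 0.468). RNH203, the next gene outside the stretch, had 0.05. Of 24 genes under nitrogen repression, a list that holds ASP3-1, none passed, 3 were lower at an unadjusted p under 0.05, and the median was -0.04. Over all genes 0.225% passed and 3.22% were lower at that level.

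The genes furthest from wild type in the ubp8 strain are given with both effects of UBP8 loss, as a description. They were picked on the ubp8 arrays, whose values also enter the difference of effects, so the choice itself favours a smaller effect without the lysine. PHO5, the repressible acid phosphatase, gave -1.52 and -1.50 in the ubp8 strain over wild type. Its differences between double mutant and K123R were -0.09 and -0.18, far from those values. For PHO5 the effect of UBP8 loss was -1.51 ± 0.06 with the lysine and -0.14 ± 0.08 without it (95% interval -0.33 to 0.06). PHO89, a sodium-phosphate cotransporter, had -1.91 ± 0.15 with the lysine and -0.10 ± 0.21 without it. HXK1, a hexokinase, had -0.78 and 0.03. GSY1, a glycogen synthase, had -0.73 and 0.22, and both GSY1 values without the lysine were above 0 (0.21 and 0.23).

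The highest genes of the ubp8 strain were set side by side in the same manner. YAT1, an acetyl-carnitine transferase, was 0.88 and 0.89 in the ubp8 strain, and its differences between the double mutant and K123R were -0.03 and 0.06. In K123R alone YAT1 stood at 0.98 and 0.88, and in the double mutant at 0.95 and 0.94, so that all 3 mutants were about equally above wild type. RSC30, a DNA-binding subunit of the RSC remodeller, had 0.90 ± 0.03 with the lysine and -0.01 ± 0.04 without it (95% interval -0.11 to 0.10). YHR054C and CUP1-1, close to RSC30 in gene order, had 0.91 and 0.89 with the lysine and -0.02 and -0.14 without it. Whether these genes are separate measurements was not examined. COS12 had 1.18 and -0.07, and CDA1, a chitin deacetylase of the spore wall, had 0.96 and -0.04. For COS12 and CDA1, K123R was already far above wild type, at 3.05 and 2.05. FCY21, a purine-cytosine permease relative, had 1.05 and -0.02 while K123R stood at -0.13, below wild type.

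Of the 10 highest and 10 lowest genes of the ubp8 strain, UBP8 and YIR043C passed without the lysine, in the direction they had with it. For the other 18 the difference between double mutant and K123R lay between -0.18 and 0.22, against -1.91 to 1.18 in the ubp8 strain, where they were chosen for their extremes. ADE17, among them, was saturated in K123R on both arrays, so its value is not exact. To read such genes on arrays not used to choose them, the 10 highest and 10 lowest genes other than UBP8 were also picked on a single ubp8 array and read on the other, a step added after the values were seen. Picked on array 1, the 10 highest had a median on array 2 of 0.90 in the ubp8 strain and 0.12 for the difference between double mutant and K123R. The 10 lowest had -0.50 and -0.06. Picked on array 2 and read on array 1, the 10 highest had 0.89 and -0.06, and the 10 lowest had -0.46 and -0.12. The medians kept the direction of the choice in the ubp8 strain on the array not used for it, and the difference between double mutant and K123R lay nearer to 0. Single genes did not all do so: YOR029W was among the 10 lowest on array 1 and the 10 highest on array 2. Both arrays are of the same ubp8 strain, so the choice still favours that strain. No genes were picked on the double mutant and K123R and read in the ubp8 strain, so these medians do not decide which effect is larger. Over all genes, the effect of UBP8 loss differed with and without the lysine for 1338 genes (21.5%), 559 higher (8.97%) and 779 lower (12.5%) without it. That count also sets strains without HTB2 against a strain that keeps it. It rests on array number as a block. Without the block no gene passed and 476 (7.62%) had an unadjusted p under 0.05. The ubp8 strain over wild type gave 3118 genes (50%) with the block, 25.3% higher and 24.7% lower, and 181 (2.9%) without it, 1.94% higher and 0.961% lower. The block takes what same-number arrays share out of the spread. A dye effect would cancel in the mean of the 2 arrays and a shared wild-type sample would not, and the labels do not let them be told apart.

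**Figure D5:**
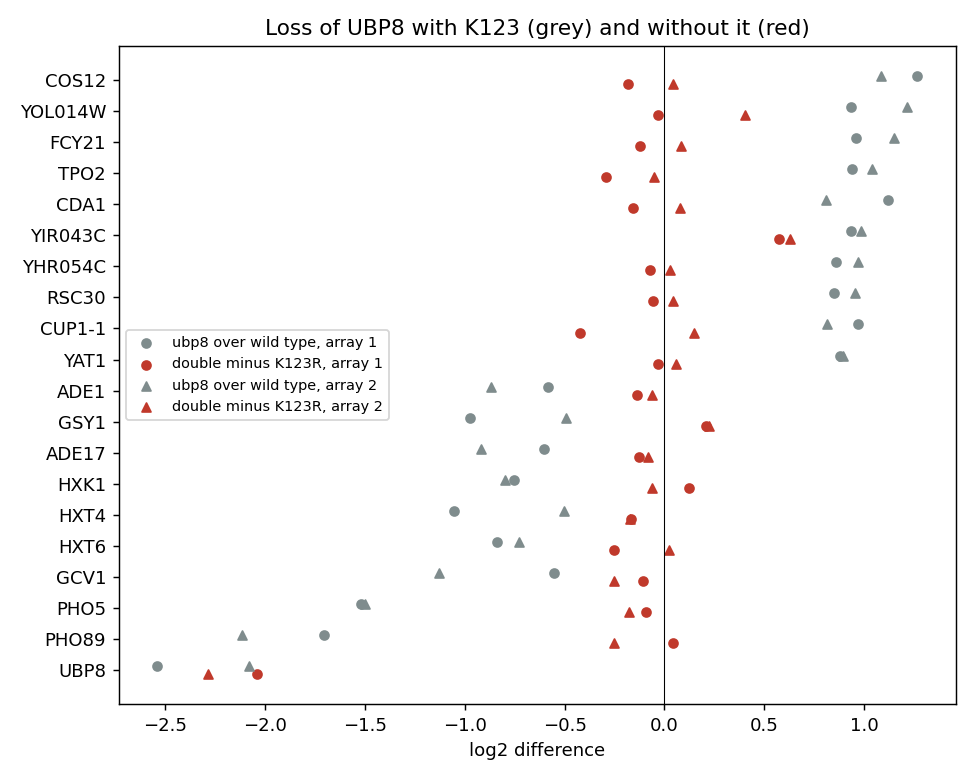
The 10 highest and 10 lowest genes of the ubp8 strain over wild type (grey) with the difference between the double mutant and K123R for the same gene (red), in log2 units, with circles for array 1 and triangles for array 2. The grey points reach -2.54 and 1.27, while the red points of genes other than UBP8 and YIR043C lie between -0.42 and 0.41; the genes were chosen on the grey points.

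Some pathway lists had medians further from 0 in the ubp8 strain than between the double mutant and K123R. For 13 purine synthesis genes the median was -0.54 in the ubp8 strain and -0.11 for the difference between double mutant and K123R. None of the 13 passed without the lysine, and 2 were lower at an unadjusted p under 0.05. For 36 general stress genes the medians were -0.27 and 0.05, with 0 passing and 2 higher at that level. For 79 ribosome assembly genes they were 0.19 and -0.00, with none passing at either level. For 21 thiamine and vitamin B6 genes they were 0.23 and -0.01, and for 20 phosphate starvation genes -0.13 and -0.03, again with none at either level. Over all genes tested the medians were -0.01 in the ubp8 strain and -0.00 for the difference. Of all genes 0.225% passed without the lysine, and 2.52% were higher and 3.22% lower at an unadjusted p under 0.05.

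Oxidative phosphorylation genes, which encode the respiratory chain and the ATP synthase, were lower in the double mutant as a list, although none passed in limma. All 35 tested members had a difference below 0, 28 of them on both arrays, and 19 were lower at an unadjusted p under 0.05 against 3.22% of all genes. NDE1, the external NADH dehydrogenase, gave 0.08 and 0.18 in K123R and -0.16 and -0.06 in the double mutant, a difference of -0.24 ± 0.04 (adjusted p = 0.107). ATP1 and ATP2, the catalytic-core subunits of the synthase, had differences of -0.24 and -0.28 (adjusted p = 0.188 and 0.284). The median was -0.10, -0.15 on array 1 and -0.07 on array 2. In the ubp8 strain the median of this list was -0.11, so here the medians with and without the lysine were alike in size. Methionine and sulfate assimilation genes lay the other way: 24 of 25 were above 0, 19 on both arrays, and 6 were higher at an unadjusted p under 0.05 against 2.52% of all genes, with none passing. The highest of them, MET3, the ATP sulfurylase, had a difference of 0.27 ± 0.08 (adjusted p = 0.621). Their median was 0.09, and -0.16 in the ubp8 strain. In each of these lists the members may move together within 1 RNA sample, so the counts are not independent.

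Mating-type genes served as a further check of the strains. None of 7 a-specific, 4 alpha-specific or 21 haploid and pheromone-induced genes passed in limma, and 3 of the last group were higher at an unadjusted p under 0.05. Their medians were -0.01, 0.02 and 0.05. Over all genes 0.225% passed and 2.52% were higher at an unadjusted p under 0.05, so 0 passing says little about lists this short.

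The 14 calls depended on the pairing of arrays by number. Without array number as a block none passed, 43 genes had an unadjusted p under 0.05 (0.689%), and the adjusted p of UBP8 was 0.0924. With the 4 arrays of the 2 strains alone 28 passed, all 14 among them, and when 1 K123R array was left out, whichever it was, LEU2 alone passed. With the mutant channel alone 7 genes passed (0.112%), all lower (0.112%), LEU2, UBP8 and NFS1 among them.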

How the data were processed

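Per the labels' protocols, total RNA was amplified, labelled with Cy3 or Cy5 and hybridised to 2-colour Agilent arrays. The deposited scanner files hold spot intensity in both colours, read with Agilent Feature Extraction, per the file headers. The authors' deposited series table holds log10 ratios of mutant over wild type, which equalled ratios of the scanner's dye-normalised signals within 5.0e-10 and served as an alternative.

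In R 4.3.3 with limma 3.58.1, mean signals were background-corrected by normexp (offset 50) and normalised by loess within each array. Control spots and spots marked as outliers were left out, spots of a probe were averaged, and each ratio was turned to mutant over wild type. A gene was kept if it was well above background in a colour on at least 3 of the 6 arrays. The 6 arrays entered 1 moderated fit with array number as a block and 2 residual degrees of freedom. Each SE given is the moderated SE of that fit. For 96 genes 1 or more of the 4 arrays had no value, and the fit used the others. The adjustment was Benjamini-Hochberg over all genes tested.

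Array number is the dye orientation, by the labels. Deviations of same-number arrays correlated at 0.86 to 0.89 between strains. Names came from RefSeq (assembly R64), which matched 5756 of the 6256 genes. Gene order came from systematic names, and 98% of 5702 neighbouring pairs had the same order in RefSeq. The genes and lists were chosen with earlier results of these data known. Genes named were UBP8, the H2A and H2B genes and markers, the highest and lowest passing genes with a symbol, the members with the smallest p in lists holding a passing gene, the extremes of the ubp8 strain and the smallest p of the difference of effects. Others named were picked after their values were seen. The scripts were tested on simulated data.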

Additional observations from a re-analysis of the deposited data

Results flagged for a closer look

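For the genes below, the effect of UBP8 loss without the lysine differed from that with it (limma, adjusted p under 0.05 for double minus K123R minus ubp8, array number as a block; none passes without the block). The strains without the lysine also lack HTB2, which the ubp8 strain keeps, so the lysine and HTB2 cannot be told apart here. Named genes include extremes of the ubp8 strain and those with the smallest p of this test, a choice that favours large differences of effects, so the sizes are descriptions. The difference of effects is in log2 units and positive where the value was higher without the lysine. Among the genes named it was most positive at PHO89 (1.81) and PHO5 (1.37), phosphate genes that were low in the ubp8 strain. It was 0.95 for GSY1, 0.81 for HXK1, 0.67 for HXT6 and 0.61 for HXT4, genes of glycogen and hexose metabolism. It was 0.66 for ADE17 and 0.63 for ADE1 of purine synthesis, 0.66 for GCV1 of glycine cleavage and 0.65 for MET17 of sulfur assimilation. ADE17 was saturated in K123R on both arrays, so its value is not exact. The leucine-pathway genes gave 0.71 for LEU1, 0.58 for BAT1 and 0.41 for OAC1.

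Genes lower without the lysine than with it were COS12 (-1.24), TPO2 (-1.16), FCY21 (-1.07), CUP1-1 (-1.03), ZRT1 (-1.01), CDA1 (-1.005), SPS19 (-0.97), YHR054C (-0.93) and RSC30 (-0.91). Also lower were YOL014W (-0.89), EEB1 (-0.88), PRM7 (-0.88), YAT1 (-0.87) and OSI1 (-0.74). These were raised in the ubp8 strain. CUP1-1, YHR054C and RSC30 lie close together in gene order and may not be separate measurements. The histone genes HTA2 (-0.42), HTB1 (-0.33) and HTA1 (-0.32) were lower by less, and on array 1 alone. There the difference between double mutant and K123R was -0.26, -0.19 and -0.23, against 0.58, 0.49 and 0.63 in the ubp8 strain. On array 2 it was 0.09, 0.05 and 0.07, against 0.08, 0.02 and -0.14, so none was lower. HTA1 was saturated in the ubp8 channel on 1 array, so its value is not exact.

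Among the genes that passed without the lysine, LEU2 differed by -3.73, its neighbour NFS1 by -0.85, and YOR199W and YOR203W near HIS3 by -0.48 and -0.33. At chromosome ends, YER189W differed by 0.59, YEL075C by 0.56, YLR463C by 0.46, YPR202W by 0.29 and YBL109W by 0.28, while YIR043C differed by -0.36 and COS8 by -0.22. SGF11, the partner of Ubp8, differed by 0.17.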

How the results depend on the processing

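The 14 genes kept their direction in all 19 alternatives and passed in 9 to 16 of them. The number passing was 14 with an offset of 16, Aquantile scaling, no filter, a stricter filter or outlier spots kept, 15 with the scanner's processed signals or the deposited ratios (9 of the 14 shared; LEU2, OAC1, YBL109W, YEL075C and YPR202W lost), 17 with an intensity trend and 19 with median centring. It was 28 with only the arrays of the comparison, 7 (none higher) with the mutant channel only, 3 with slide in place of array number and 0 with no replicate block. Leaving out 1 array gave 1 to 28: 1 without either K123R array, 20 and 15 without double mutant array 1 and 2, and 28 without either ubp8 array. Array number as a block also set the other counts. For the ubp8 strain over wild type, 3118 became 181 with no replicate block, 237 with only its arrays and 920 with slide as a block, and 1483 to 3225 with 1 array left out. For the difference of effects, 1338 became 0 with no replicate block and 22 with slide, and 25 to 1218 with 1 array left out; it needs all 3 mutants and was not run on fewer. The wild-type channels gave 0 to 76 with 1 array left out (76 without double mutant array 1, 2 without K123R array 1). The cause of these shifts was not tested. With each named gene under each alternative counted as 1 case, 757 cases stayed the same. A call was lost in 81 cases and gained in 7, and none reversed. In 124 cases a gene that passed in neither setting moved by more than its SE. A random slide block could not be estimated, so slide entered as a fixed block. Only 2 differences per gene limit what could be detected.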
